A study of Mus musculus with 8 samples.

Results

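Transcript levels of 33 genes of glycolysis and of the cellular response to low oxygen were followed in cultured primary mouse brain microvascular endothelial cells (BMECs), the cells that line the small vessels of the brain. The genes were taken by symbol from a list that was drawn up with earlier results of these data known. They are 33 of the 54532 Ensembl genes in the deposited tables. In 32 of the 33 the FPKM was at least 1 in at least 4 libraries, the condition for a test, and Aldoc was not tested. FPKM is the fragment count scaled to annotated exon length and library size. RNA sequencing covered 4 libraries from wild-type mice and 4 labelled Cavb3 KO, from mice described as lacking Cavβ3, the β3 subunit of voltage-gated calcium channels, whose gene is Cacnb3. Both groups were grown in the same medium, which held serum, heparin and a fibroblast growth factor. The labels name no low-oxygen treatment, and they give no strain, sex, age or method of gene deletion. The replicates are described as independent biological ones, without saying whether mice were pooled.

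The libraries held 23491641 to 33813074 fragments, as recovered from the FPKM steps. Replicates 1 and 2 stood apart from replicates 3 and 4 in both groups, a division seen in the data and not named in the labels. The Y-linked Ddx3y lay between 6.98 and 9.48 FPKM in the first set and was listed at 0 in the second, and 44.8% of the 11864 genes tested differed between the sets. Every comparison by genotype label was therefore also made within each set, where 2 libraries stand against 2. Cacnb3 itself was at 0.98 to 3.56 FPKM in the wild-type libraries and at 1.7 to 2.47 in those labelled KO. Over all libraries the level of the targeted gene thus did not separate the labels. Within each set it did, but in opposite directions. In replicates 1 and 2 both labelled KO libraries (highest 2.09) lay below both wild-type ones (lowest 3.38). In replicates 3 and 4 both labelled KO libraries (highest 2.47) lay above both wild-type ones (lowest 0.98). The cause of this reversal was not tested, and each genotype difference below is between libraries so labelled. All 10 endothelial markers were at 1 FPKM or more in every library. At most part of each list for other cell types stayed below 0.1 FPKM in all libraries. This held for 2 of 9 pericyte and smooth muscle genes (Kcnj8 and Abcc9), 1 of 6 fibroblast genes (Lum) and 1 of 5 astrocyte genes (Aqp4). It also held for 3 of 7 epithelial and choroid plexus genes (Krt8, Ttr and Kl) and 4 of 6 neuron and oligodendrocyte genes (Rbfox3, Snap25, Syt1 and Mbp). It held for none of the 6 microglia and macrophage genes, which summed to 0.595 to 1.29 FPKM. Other genes of some of these lists were detected. The summed level was 4.56 to 28.6 FPKM over 9 pericyte and smooth muscle genes, 3.37 to 8.15 over 6 fibroblast genes and 15.5 to 19.4 over 5 astrocyte genes, and in each of these lists 1 gene was at 1 FPKM or more in every library. The 6 neuron and oligodendrocyte genes summed to 0.261 to 0.645. In bulk RNA, fewer cells of a type and less RNA per cell cannot be told apart.

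Glycolysis splits glucose into pyruvate through a chain of enzymes, several of which exist as isoforms made from separate genes, and lactate dehydrogenase turns pyruvate into lactate for export. Endothelial cells are known to draw much of their ATP from this route. When oxygen is plentiful, prolyl hydroxylases mark the transcription factor subunits HIF-1α and HIF-2α for destruction through the von Hippel-Lindau protein. When oxygen is short, the subunits persist and bind the hypoxia response element, whose core is ACGTG or GCGTG, near many of the genes described here.

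The windows of 250 bases before the start of transcription were searched for this core on both strands. At least 1 core lay in 35 of the 46 windows of the 31 genes with an entry (76.1%) and in 38.6% of all 32851 windows in the RefSeq promoter table (GRCm38.p6). No entry was found for Epas1 and Ndrg1. The list was chosen as one of glycolytic and hypoxia response genes, many of them known HIF targets, so its share of windows with the core is a description. The windows of 6 genes are shown because Pfkp carried the genotype difference and the other 5 were among those that differed most between the replicate sets. Cores are in capitals, written on the strand of the gene, where CACGT and CACGC are the reverse complements of ACGTG and GCGTG, and overlapping matches run together. The 4 genes higher in replicates 3 and 4 are Pfkp (chr13:6648772-6649021, minus strand, 3 cores), Ankrd37 (chr8:45999851-46000100, minus strand, 4 cores), P4ha1 (chr10:59323046-59323295, plus strand, 3 cores) and Ddit4 (chr10:59951771-59952020, minus strand, 2 cores).
Pfkp: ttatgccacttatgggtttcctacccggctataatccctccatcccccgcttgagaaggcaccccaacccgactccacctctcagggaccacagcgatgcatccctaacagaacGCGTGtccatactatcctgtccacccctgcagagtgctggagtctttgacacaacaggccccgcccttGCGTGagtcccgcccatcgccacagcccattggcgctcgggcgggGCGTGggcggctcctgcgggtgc
Ankrd37: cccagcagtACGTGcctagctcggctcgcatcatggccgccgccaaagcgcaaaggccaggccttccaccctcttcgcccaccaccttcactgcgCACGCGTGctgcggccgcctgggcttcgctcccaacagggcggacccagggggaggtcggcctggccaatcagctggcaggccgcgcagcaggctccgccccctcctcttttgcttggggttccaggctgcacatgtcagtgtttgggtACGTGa
P4ha1: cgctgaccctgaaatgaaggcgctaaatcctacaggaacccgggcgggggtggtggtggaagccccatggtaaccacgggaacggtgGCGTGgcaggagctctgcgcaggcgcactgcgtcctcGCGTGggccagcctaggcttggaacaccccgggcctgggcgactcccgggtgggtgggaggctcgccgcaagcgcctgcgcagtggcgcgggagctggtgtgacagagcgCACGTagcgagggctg
Ddit4: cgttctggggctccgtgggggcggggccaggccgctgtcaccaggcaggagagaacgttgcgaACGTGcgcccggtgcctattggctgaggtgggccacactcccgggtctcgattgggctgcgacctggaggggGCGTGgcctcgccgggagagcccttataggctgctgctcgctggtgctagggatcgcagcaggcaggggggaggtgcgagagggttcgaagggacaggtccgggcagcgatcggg

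The 2 genes lower in replicates 3 and 4 are Ldhb (chr6:142507958-142508207, minus strand, 1 core) and Adm (chr7:110627407-110627656, plus strand, 2 cores). The core was present in the windows shown for genes of both directions, as it was in 38.6% of all windows. Its part in the differences was not tested. A match to these letters is not a measured binding site. Of all windows, 16.7% held 2 or more cores and 6.58% held 3 or more.
Ldhb: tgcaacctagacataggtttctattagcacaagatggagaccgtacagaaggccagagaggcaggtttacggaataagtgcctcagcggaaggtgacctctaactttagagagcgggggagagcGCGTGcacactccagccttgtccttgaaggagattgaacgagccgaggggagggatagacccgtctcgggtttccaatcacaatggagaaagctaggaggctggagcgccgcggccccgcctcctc
Adm: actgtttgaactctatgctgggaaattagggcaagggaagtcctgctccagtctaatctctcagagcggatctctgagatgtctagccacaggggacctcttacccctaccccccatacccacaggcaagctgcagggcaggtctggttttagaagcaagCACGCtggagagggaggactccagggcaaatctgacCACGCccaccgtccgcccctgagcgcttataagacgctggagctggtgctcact

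By FPKM, the most abundant transcripts were those of 6 enzymes between aldolase and lactate dehydrogenase. Pkm, the pyruvate kinase that makes pyruvate, had the highest median over the 8 libraries, at 506 FPKM with a range of 444 to 637. It was followed by the aldolase Aldoa at 398, the phosphoglycerate kinase Pgk1 at 378, the enolase Eno1 at 277, the phosphoglycerate mutase Pgam1 at 264 and the lactate dehydrogenase Ldha at 248. The ranges of neighbours in this order overlapped, except those of Pgk1 (361 to 432) and Eno1 (236 to 314). Hif1a, which encodes HIF-1α, followed at 141 and Adm, which encodes the vasodilator peptide adrenomedullin, at 119. The transcripts for the first committed steps were far lower, with 20.2 FPKM for Pfkl, 15.7 for Pfkm and 11.9 for Pfkp, the 3 isoforms of phosphofructokinase. Egln3, Pfkfb4, Eno2 and Aldoc were the lowest, with medians of 2.21, 1.82, 1.23 and 0.129. Summed over 14 enzymes of the pathway without Gapdh, the level ran from 1863 to 2071 FPKM in the wild-type libraries and from 2031 to 2380 in those labelled KO, so the groups overlapped. In replicates 1 and 2 the sum was 1863 and 1909 in the wild type and 2123 and 2380 under the KO label, without overlap. In replicates 3 and 4 it was 2071 and 1951 against 2198 and 2031, with overlap.

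**Figure D1:**
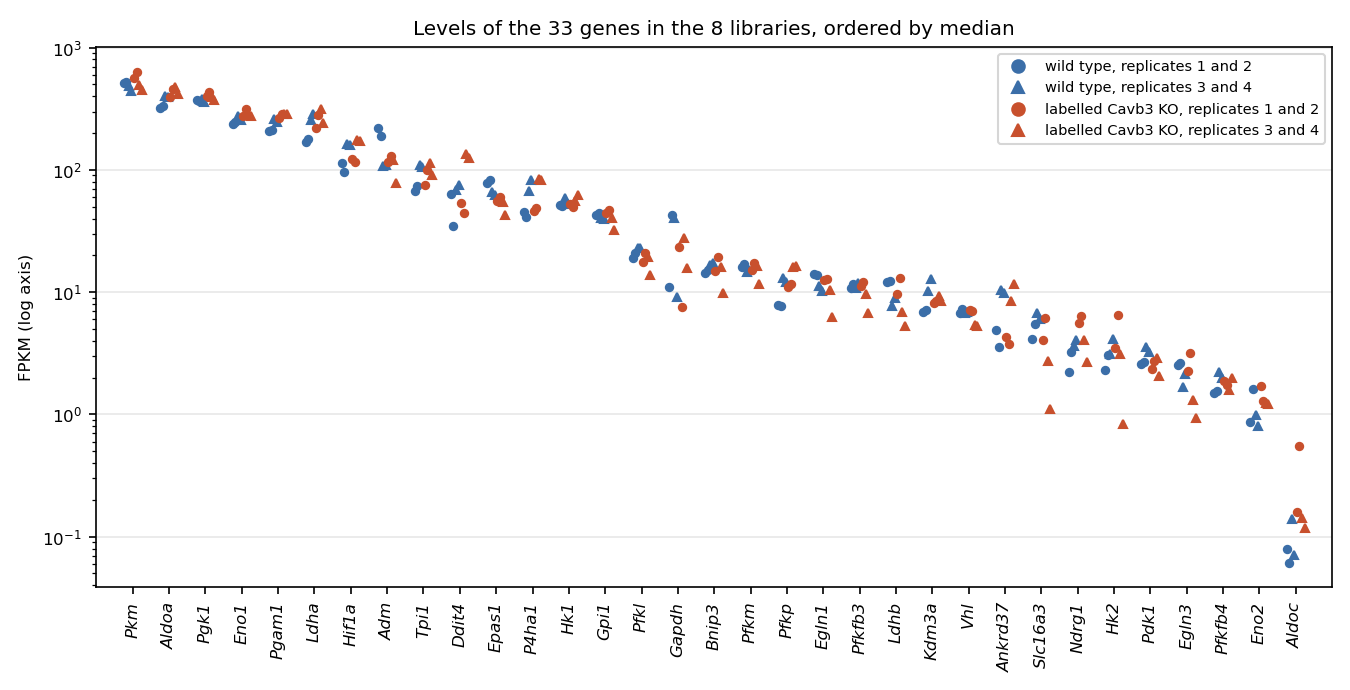
FPKM (log axis) of the 33 genes in the 8 libraries, with genes ordered by their median, colour for the genotype label and circles or triangles for replicates 1 and 2 or 3 and 4. Pkm leads at a median of 506, Aldoc is lowest at 0.129, and Gapdh has the widest spread among the genes with a median above 5 FPKM.

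Gapdh, the dehydrogenase that often serves as a reference gene, measured 11.1, 43, 40.2 and 9.09 FPKM in the 4 wild-type libraries and 23.4, 7.57, 27.5 and 15.8 in the libraries labelled KO. Its level ran high and low within each genotype label and each set. The annotation holds 77 near-identical copies of Gapdh, 74 of them pseudogenes, which shared 1345 to 1888 recovered reads against 975 to 4727 for Gapdh itself. How the authors counted reads that match several copies is not given in the sources used here, so the level of Gapdh is uncertain.

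The genotype comparison asked whether these transcripts differ when Cavβ3 is lacking. The phosphofructokinase isoform Pfkp (platelet type) was the only 1 of the 32 tested genes to pass, and it rose in the libraries labelled KO. Pgam1 and Eno1 were higher, and Epas1, which encodes HIF-2α, was lower, in every library labelled KO than in any wild-type library, but none of these 3 passed an adjusted p of 0.05. For Eno1 the margin was slight, since wild-type replicate 3 and labelled KO replicate 1 were both at 277 FPKM as rounded. Of all genes tested, 0.194% were called higher and 0.126% lower, 0.32% in all. The median log2 fold change of the 32 genes was -0.04, beside -0.02 for all genes, with 14 positive and 18 negative.

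Pfkp (ENSMUSG00000021196) measured 7.92, 7.74, 13.1 and 12.1 FPKM in replicates 1 to 4 of the wild type and 11, 11.7, 16 and 16.3 in those labelled KO. The labelled KO libraries were above the wild-type ones within each set, while the 4 against 4 overlapped because replicates 3 and 4 were the higher set in both groups. The group means were 10.2 ± 2.77 and 13.7 ± 2.8 (SD, n = 4). The log2 fold change of FPKM + 1 was 0.41 ± 0.06 (SE, 95% interval 0.28 to 0.54, limma adjusted p = 0.0497). It was 0.48 in replicates 1 and 2 (adjusted p = 0.123) and 0.34 in replicates 3 and 4 (adjusted p = 0.172). With the replicate number as a block the adjusted p was 0.107, and the call was lost in 7 of 8 fits that each left out 1 library, where the fold change stayed between 0.38 and 0.44. The gene span of Pfkp overlaps 748 bases of Pitrm1 on the opposite strand, and since the use of strand is not given, reads from the shared bases cannot be told apart. Pitrm1 was at 12.4 to 15 FPKM in the wild-type libraries and at 12.2 to 13.3 in those labelled KO.

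Pgam1, which moves the phosphate of phosphoglycerate, was at 206, 213, 261 and 246 FPKM in the wild type and at 267, 285, 288 and 284 in the libraries labelled KO. Eno1, which makes phosphoenolpyruvate, was at 236, 248, 277 and 254 against 277, 314, 286 and 278. Their log2 fold changes were 0.29 ± 0.05 (adjusted p = 0.0665) and 0.19 ± 0.06 (adjusted p = 0.181). Both differences were smaller in replicates 3 and 4 (0.18 and 0.09) than in replicates 1 and 2 (0.39 and 0.28), without a call in either set. Aldoa, which splits fructose bisphosphate, was at 322, 335, 404 and 392 FPKM in the wild type and at 393, 458, 472 and 417 in the labelled KO libraries. Its fold change was 0.26 ± 0.07 (adjusted p = 0.129). Groups without overlap were found for 1.64% of all genes in the higher direction and 2.5% in the lower, beside 2 and 1 of these 32. Near-identical copies of Eno1 in the annotation held 3.4% to 3.99% of the reads of Eno1 and its copies.

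Of the 6 enzymes of lower glycolysis, 5 had a positive log2 fold change and none was called, with a median of 0.15. The 6 of upper glycolysis that were tested divided into 3 positive and 3 negative, with Pfkp called. For pyruvate and lactate, 1 was positive and 3 negative, with Ldha at 0.26 (adjusted p = 0.265), the lactate dehydrogenase subunit Ldhb at -0.26 (adjusted p = 0.272) and the lactate exporter Slc16a3 at -0.67 (adjusted p = 0.149). A marker list moved with the genotype label beside these values: the 7 epithelial and choroid plexus genes summed to 26.1 to 40.9 FPKM in the wild type and 65.3 to 94 in the libraries labelled KO. Nearly all of it was Krt19, at 24.6 to 37.3 and 55.9 to 88.7, while Krt8, Ttr and Kl stayed below 0.1. The part of this list in the differences was not tested.

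Among the oxygen sensors, Epas1 was at 77.6, 83.4, 65.3 and 62.2 FPKM in the wild type and at 55.4, 59.9, 54.7 and 43.1 in the libraries labelled KO. The highest labelled KO value lay below the lowest wild-type one. Its log2 fold change was -0.43 ± 0.08 (95% interval -0.63 to -0.23, adjusted p = 0.0673), with -0.47 in replicates 1 and 2 and -0.38 in replicates 3 and 4. Endothelial markers moved the same way, since the 10 of them summed to 1480 to 2121 FPKM in the wild type and 1278 to 1635 in the libraries labelled KO, and their part in the Epas1 difference was not tested. Hif1a was at 113, 96.1, 164 and 159 against 123, 117, 175 and 173, and its fold change was 0.15 ± 0.06 (adjusted p = 0.251). None of the 5 genes of oxygen sensing was called.

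None of the 7 hypoxia response genes was called either, with 3 positive and 4 negative. Adm was at 218, 189, 108 and 110 FPKM in the wild type and at 117, 131, 120 and 77.4 in the libraries labelled KO. Its log2 fold change was -0.71 in replicates 1 and 2 (95% interval -1.17 to -0.25, adjusted p = 0.243) and -0.18 in replicates 3 and 4 (adjusted p = 0.718). The change between the sets did not pass (0.53, 95% interval -0.12 to 1.18, adjusted p = 0.874). Without labelled KO replicate 4 the value in replicates 3 and 4 was 0.14. Ddit4, a stress-induced inhibitor of mTORC1 signalling, was at 62.9, 35, 68.5 and 75.5 against 53.2, 44.4, 134 and 125. Its log2 fold change was 0.05 in replicates 1 and 2 (adjusted p = 0.96) and 0.84 in replicates 3 and 4 (95% interval 0.25 to 1.42, adjusted p = 0.227), and the change between the sets did not pass (0.79, 95% interval -0.04 to 1.61).

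**Figure D2:**
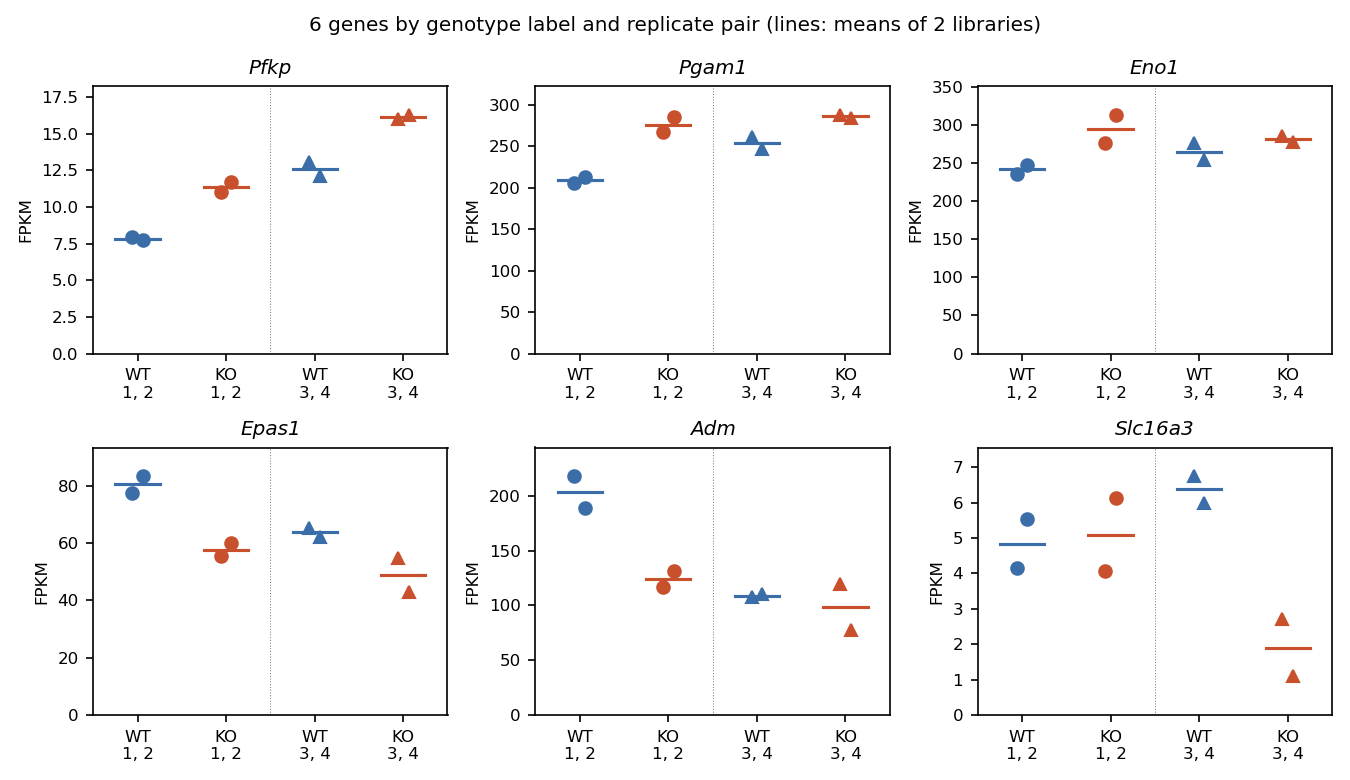
FPKM of 6 genes in wild-type (WT) libraries and those labelled Cavb3 KO, in replicates 1 and 2 (circles) and 3 and 4 (triangles), with lines for the mean of 2 libraries. Pfkp lies higher under the KO label in both sets, Epas1 lies lower in both, the highest Adm values are 218 and 189 in wild-type replicates 1 and 2, and the lowest Slc16a3 values are 2.71 and 1.1 in labelled KO replicates 3 and 4.

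When labelled KO replicate 3 was left out, labelled KO replicate 4 was the only library of its label in replicates 3 and 4. That library was the lowest of the 8 for 33.1% of all genes. Leaving out labelled KO replicate 3 changed these calls the most. Without it, 8 of the 32 genes passed, Pfkp and Pgam1 higher and Pfkl, Epas1, Slc16a3, Pfkfb3, Adm and Egln1 lower, beside 1040 of all genes tested in place of 38. Leaving out any of the other 7 libraries gave 0 of 32. With limma-voom on the recovered reads, Pgam1 (adjusted p = 0.0267) and Pfkp (0.012) were called higher, together with Aldoa (0.0456), and Epas1 (0.0456) lower, beside 235 of all 11864 genes. At an unadjusted p under 0.05, 11 of 32 genes (34.4%) differed by genotype label, beside 19.4% of all genes tested.

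The genotype difference was then taken within each set. The median log2 fold change of the 32 genes was 0.10 in replicates 1 and 2, with 22 positive and 10 negative, and -0.13 in replicates 3 and 4, with 13 positive and 19 negative. For all genes it was -0.02 in both. None of the 32 genes passed in either set, beside 0.0506% of all genes in each, and at an unadjusted p under 0.05 limma gave 8 genes (25%) in the first set and 11 (34.4%) in the second, beside 11.7% and 14.3% of all genes. Limma-voom called Pfkp alone in the first set (adjusted p = 0.0326), beside 39 of all genes, and none in the second. In replicates 1 and 2, 15 genes were higher in both labelled KO libraries than in either wild-type one, beside 17.7% of all genes, and 3 were lower, beside 28.9%. In replicates 3 and 4 the counts were 8 higher, beside 17.9%, and 12 lower, beside 25.8%. The lower ones in replicates 3 and 4 took in Hk2, Pfkl, Pfkfb3, Pfkfb4, Pdk1, Slc16a3 and Bnip3. Among them, Pfkfb4 was at 2 FPKM as rounded in both wild-type and labelled KO replicate 4. Without labelled KO replicate 3, the KO side of replicates 3 and 4 is labelled KO replicate 4 alone. Calls within that set from that fit are therefore not read as results. In labelled KO replicate 4, Slc16a3 was at 1.1, Egln1 at 6.28, Pfkfb3 at 6.73, Pfkl at 13.9 and Epas1 at 43.1 FPKM. Each of these was the lowest value of the 8 libraries.

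Slc16a3, which carries lactate out of the cell, was at 4.16, 5.53, 6.75 and 6 FPKM in the wild type and at 4.07, 6.13, 2.71 and 1.1 in the libraries labelled KO. The pairs overlapped in replicates 1 and 2, whereas in replicates 3 and 4 the labelled KO values were the lower. The log2 fold change was -1.40 in replicates 3 and 4 (95% interval -2.09 to -0.72, adjusted p = 0.141). Its change between the sets was -1.45 (95% interval -2.42 to -0.48, adjusted p = 0.554). Ndrg1, a gene that rises under low oxygen in many cells, was at 2.22, 3.23, 3.61 and 4.06 FPKM in the wild type and at 5.54, 6.36, 4.04 and 2.68 in the labelled KO libraries. It was 0.91 higher on the log2 scale in replicates 1 and 2 (adjusted p = 0.152), and its difference changed by -1.07 (95% interval -1.70 to -0.44, adjusted p = 0.456). None of the 32 genes passed the test of this change, beside 0.00843% of all genes. At an unadjusted p under 0.05 limma gave 5 (15.6%), beside 6.2% of all genes, and limma-voom called none.

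**Figure D3:**
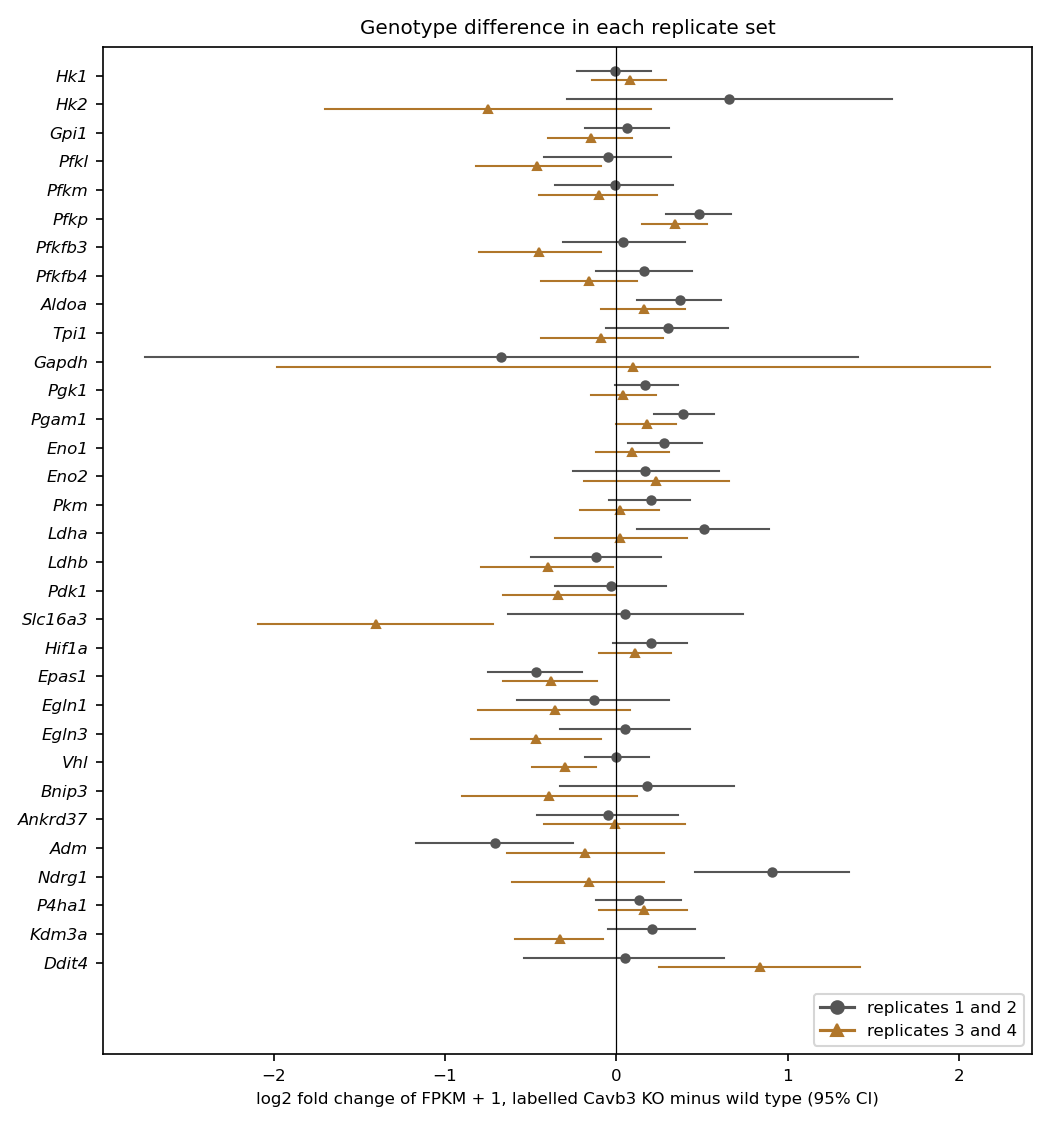
Log2 fold change of FPKM + 1, labelled Cavb3 KO minus wild type, for the 32 tested genes within replicates 1 and 2 (grey circles) and 3 and 4 (brown triangles), with 95% intervals. Intervals of both sets overlap for most genes, Slc16a3, Hk2 and Ndrg1 lie farthest apart with changes of -1.45, -1.40 and -1.07, and Gapdh has the widest intervals.

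Single libraries stood out within the sets. Labelled KO replicate 4 was the lowest of the 8 libraries for 14 of the 32 genes (43.8%), beside 33.1% of all genes. Wild-type replicate 1 was the lowest for 8 (25%), beside 9.57%. Labelled KO replicate 2 was the highest for 11 of them (34.4%), beside 10.4%, and labelled KO replicate 3 for 7 (21.9%), beside 9.51%. Hk2, the inducible hexokinase, was at 2.3, 3.06, 3.14 and 4.15 FPKM in the wild type and 3.47, 6.45, 3.12 and 0.834 in the libraries labelled KO, so both extremes were labelled KO libraries.

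The difference between the replicate sets exceeded that between the genotype labels in number. The sets were recognised in these same data, so p-values between them, here and for the isoform shares, describe the division and are not an independent test of it. Between replicates 3 and 4 and replicates 1 and 2, 9 of the 32 genes were called higher, beside 19.5% of all genes, and 8 lower, beside 25.4%. The median was -0.03, beside -0.04 for all genes. Without overlap between the sets, 7 lay higher, beside 16.9% of all genes, and 5 lower, beside 22.8%. Of the 17, the 9 genes Adm, Ankrd37, Ddit4, Egln3, Hif1a, Kdm3a, Ldhb, P4ha1 and Pfkp were called in each of the 8 fits that left out 1 library. The number called ranged from 9 to 20 in those fits, and was 9, 10, 10 and 10 without wild-type replicates 1, 2, 3 and 4 and 11 without labelled KO replicate 2.

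All 5 genes of oxygen sensing were called between the sets, Hif1a higher and Epas1, Egln1, Egln3 and Vhl lower, beside 44.8% of all genes tested. Of these, only Hif1a and Egln3 kept the call in each of the 8 fits that left out 1 library. Hif1a lay between 96.1 and 123 FPKM in replicates 1 and 2 and between 159 and 175 in replicates 3 and 4, without overlap (log2 fold change 0.58 ± 0.06, adjusted p = 0.00149). The prolyl hydroxylase gene Egln1 was at 14, 13.8, 12.5 and 12.7 in replicates 1 and 2 of the wild type and the labelled KO, and at 11.2, 10.2, 10.4 and 6.28 in replicates 3 and 4. It fell by 0.47 (adjusted p = 0.0273). Egln3, the hydroxylase gene that is itself induced by HIF in many cells, was at 2.52, 2.62, 2.27 and 3.18 against 1.69, 2.16, 1.3 and 0.927 and fell by 0.55 (adjusted p = 0.00908). Vhl, which encodes the von Hippel-Lindau protein, fell by 0.19 (adjusted p = 0.0292), and Epas1 by 0.29 (adjusted p = 0.0286).

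Of the hypoxia response genes, 4 were higher, 1 lower and 2 not called, beside 19.5% of all genes higher and 25.4% lower. Ankrd37, a HIF target that encodes an ankyrin repeat protein, was at 4.94, 3.54, 4.28 and 3.77 FPKM in replicates 1 and 2 and at 10.4, 9.77, 8.53 and 11.7 in replicates 3 and 4, the largest difference among the 32 genes (1.11 ± 0.12, adjusted p = 0.00151). P4ha1, which encodes a collagen prolyl hydroxylase subunit, was at 45, 41.3, 45.7 and 48.7 against 67.5, 83, 84 and 83.2 (0.80 ± 0.08, adjusted p = 0.00104). Ddit4 (1.00 ± 0.17, adjusted p = 0.00546) and the histone demethylase gene Kdm3a (0.36 ± 0.08, adjusted p = 0.00921) were higher as well. Adm fell by 0.62 (adjusted p = 0.0117). Its libraries overlapped between the sets, and the 2 highest were wild-type replicates 1 and 2. Ankrd37 and Adm, both known HIF targets, went opposite ways, and the part of HIF in these differences was not tested.

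In the glycolytic enzymes Pfkp (0.55, adjusted p = 0.0013), Tpi1 (0.41, adjusted p = 0.0192), Ldha (0.39, adjusted p = 0.0298) and Pgam1 (0.16, adjusted p = 0.0458) were higher in replicates 3 and 4, and Pkm, Gpi1 and Ldhb lower. Ldhb was at 12.2, 12.4, 9.72 and 13.1 FPKM in replicates 1 and 2 and at 7.69, 8.94, 6.91 and 5.26 in replicates 3 and 4, and it fell by 0.66 (adjusted p = 0.00509). Pkm fell by 0.26 (adjusted p = 0.0217) and Gpi1, the glucose phosphate isomerase gene, by 0.22 (adjusted p = 0.047). The summed pericyte and smooth muscle markers moved with the sets, at 9.92 to 28.6 FPKM in replicates 1 and 2 and 4.56 to 7.76 in replicates 3 and 4, as did the endothelial markers at 1609 to 2121 and 1278 to 1570. The X-linked Xist was at 12.4 to 15.1 and 28.3 to 43.3. The part of these shifts in the set differences was not tested.

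**Figure D4:**
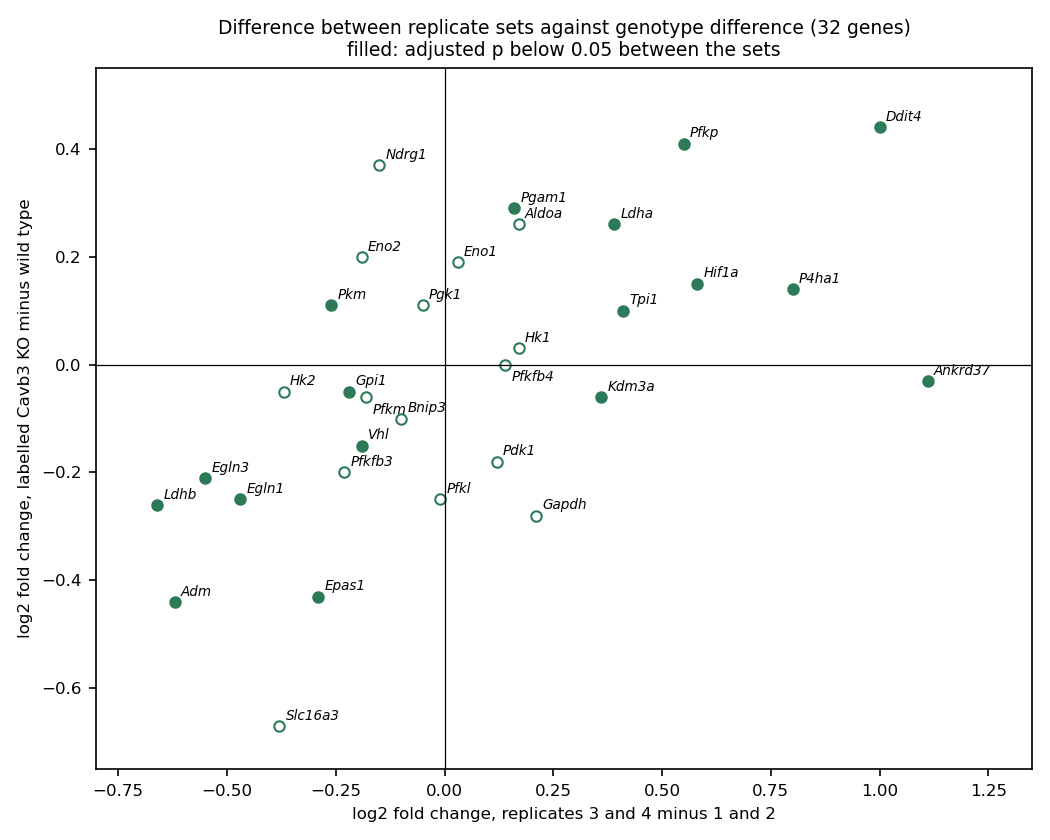
Log2 fold change between replicates 3 and 4 and replicates 1 and 2 (horizontal) against that between the labelled Cavb3 KO and the wild type (vertical) for the 32 tested genes, with filled points for the 17 called between the sets. The points spread from -0.66 (Ldhb) to 1.11 (Ankrd37) across the sets and from -0.67 (Slc16a3) to 0.44 (Ddit4) across the labels.

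The balance of isoforms was given as the share of an isoform in the summed FPKM of its family. FPKM divides by a gene length, here that of all annotated exons (13401 bases for Pfkp, 6675 for Pfkl and 3340 for Pfkm). The size of a share, and the order of genes by FPKM, thus depend on these lengths. Whether they match the transcripts made in these cells was not tested. For phosphofructokinase, the liver-type Pfkl was at 19.1, 20.9, 23 and 22.9 FPKM in the wild type and 17.8, 20.8, 19.5 and 13.9 in the libraries labelled KO. The muscle-type Pfkm was at 16, 16.9, 14.5 and 15.3 against 15.3, 17.4, 16.3 and 11.7. The share of Pfkl was 45.3% ± 0.689 in the wild type and 38.2% ± 3.82 under the KO label (SD, n = 4), and that of Pfkp 21.3% ± 4.28 and 29.5% ± 7.07. The Pfkl groups did not overlap, with 44.3% as the lowest wild-type share and 41.7% as the highest labelled KO one. Exact two-sided permutation tests over 70 splits gave p = 0.0286 for Pfkl, the smallest these splits can give, and p = 0.143 for Pfkp. Over the 10 shares of 8 families tested these became 0.286 and 0.476. The difference in the Pfkl share, labelled KO minus wild type, was -4.05 percentage points in replicates 1 and 2 and -10.1 in replicates 3 and 4.

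Between the sets, the share of Pfkm was 36% ± 1.4 in replicates 1 and 2 and 29.6% ± 1.6 in replicates 3 and 4 (exact permutation p = 0.0286, adjusted p = 0.0952). Ldha was at 168, 180, 256 and 285 FPKM in the wild type and 219, 280, 314 and 240 in the libraries labelled KO. Its share of lactate dehydrogenase was 94.5% ± 1.32 in the first set and 97.4% ± 0.483 in the second (exact permutation p = 0.0286, adjusted p = 0.0952). The share of Hif1a in the sum with Epas1 was 61.9% ± 6.92 and 74.9% ± 4.04 (exact permutation p = 0.0286, adjusted p = 0.0952). These 3 shares did not overlap between the sets. By genotype label the Hif1a share was 64% ± 9.15 and 72.8% ± 6.45 (exact permutation p = 0.2, adjusted p = 0.5). Within each set, the Pfkp, Ldha and Hif1a shares of both labelled KO libraries lay above those of both wild-type ones. The Pfkl share lay below in each set. The differences were 6.47 percentage points in replicates 1 and 2 and 10 in replicates 3 and 4 for Pfkp. They were 2.27 and 0.831 for Ldha, and 11.1 and 6.44 for Hif1a. With splits made only within the sets, the exact permutation test cannot go below p = 0.0556, and the adjusted p was 0.139 for the shares of Pfkl, Pfkp, Ldha and Hif1a. None of the 10 shares passed after adjustment in either comparison, where 3 by set and 1 by label had an unadjusted p under 0.05.

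The other families were led by 1 isoform throughout. Hk1, the constitutive hexokinase, was at 51.9, 50.9, 59.1 and 53 FPKM in the wild type and 52.4, 49.3, 55.6 and 62.7 in the libraries labelled KO, which made 88.4% to 98.7% of the sum with Hk2. Pfkfb3, the main maker of the activator fructose 2,6-bisphosphate in endothelial cells, was at 10.9, 11.7, 10.9 and 11.9 against 11.2, 12.2, 9.73 and 6.73. Its relative Pfkfb4 was at 1.51, 1.55, 2.22 and 2 against 1.89, 1.75, 1.58 and 2, and Pfkfb3 made 77.1% to 88.4% of both. Eno2, the enolase of neurons, was at 0.874, 1.6, 0.985 and 0.811 against 1.72, 1.28, 1.24 and 1.22, and Eno1 made at least 99.4% of the sum. The brain aldolase Aldoc was at 0.0788, 0.0614, 0.14 and 0.0709 against 0.16, 0.553, 0.142 and 0.117, and Aldoa made at least 99.9%. Egln1 made 80% to 88.9% of the sum with Egln3.

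**Figure D5:**
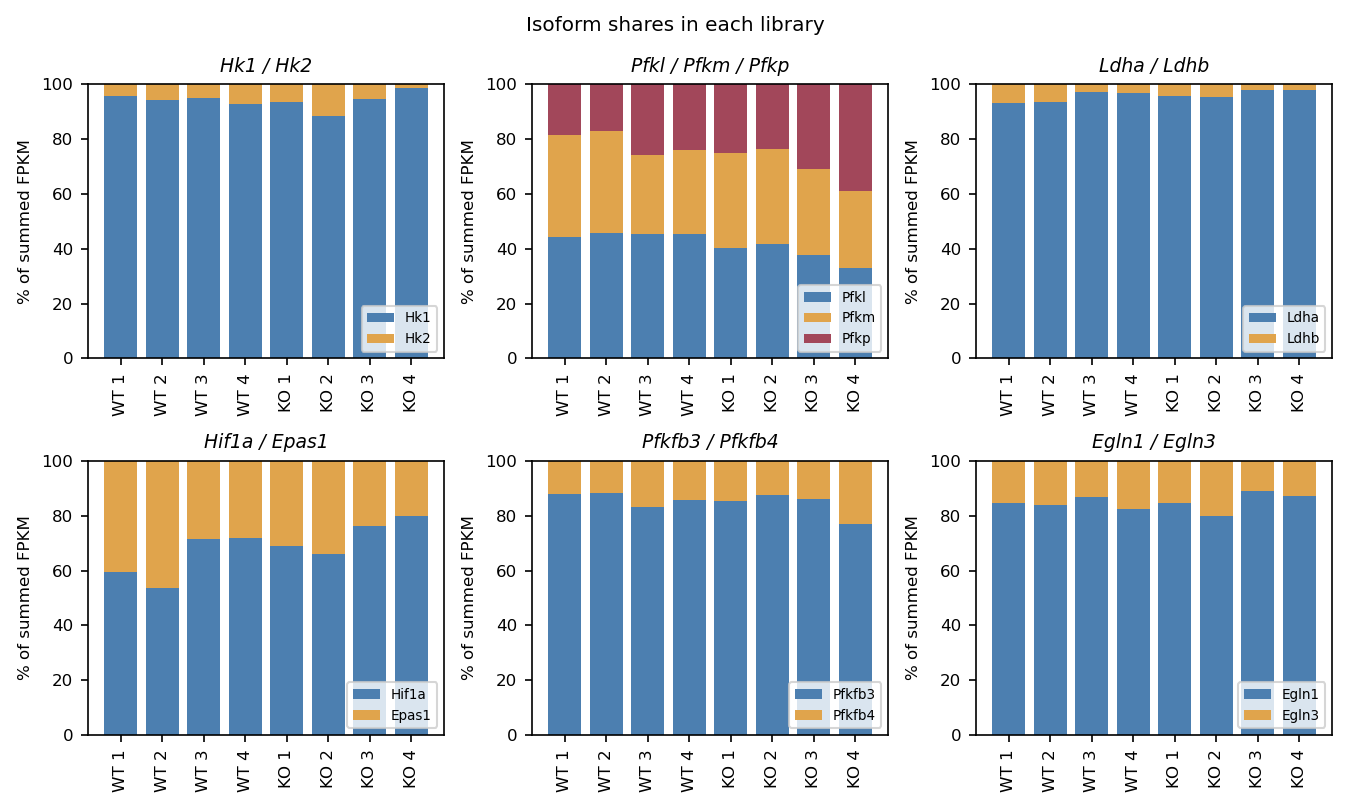
Share of each isoform in the summed FPKM of its family, in percent, for 6 families in wild-type (WT) libraries and those labelled Cavb3 KO, replicates 1 to 4. The Pfkp share is largest in labelled KO replicate 4 at 39%, and the Hif1a share runs from 53.5% in wild-type replicate 2 to 80% in labelled KO replicate 4.

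Other genes of the same pathways were counted for context. Of 21 tested genes of glycolysis and pyruvate metabolism, 1 was called by genotype label. This was Bpgm, the bisphosphoglycerate mutase, at 56.7 ± 14.1 FPKM in the wild type and 77.1 ± 8.81 under the KO label (0.46 ± 0.06, adjusted p = 0.0465, 0.121 with the replicate block). The call on Bpgm was lost in 7 of 8 fits that left out 1 library. None of 13 other oxygen sensing genes and none of 31 other HIF targets passed. Between the sets, 4 of the 21 were higher and 5 lower, 4 of the 13 higher and 2 lower, and 11 of the 31 higher and 9 lower, beside 19.5% and 25.4% of all genes. The largest set differences were those of Pdgfb, a growth factor gene, at -1.47, and of the monocarboxylate transporter gene Slc16a1 at 1.43. Slc16a1 was at 10.3 ± 1.74 FPKM in replicates 1 and 2 and 29.4 ± 2.99 in replicates 3 and 4 (adjusted p = 0.000881). The endothelin gene Edn1 followed at -1.03, the HIF partner Arnt2 at 1.01 and the muscle phosphoglycerate mutase Pgam2 at 0.94.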

How the data were processed

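RNA was taken from cultured BMECs with a column kit and made into libraries with a NEBNext Ultra kit, per the labels' protocols. Reads were aligned with HISAT2 2.0.5, per the submitters' processing notes. For the counter, genome build, annotation and strand setting, nothing is given in the sources used here. The authors deposited 1 FPKM table for each of 8 libraries, with 54532 genes. Groups and replicate numbers came from the titles.

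Symbols matched 54409 genes. Of 2 identifiers with the symbol Aldoa, the first in sorted order was used, that of the RefSeq gene. Exon lengths of GENCODE M21 gave whole reads for 96.4% to 96.7% of the values above 0 (tolerance 0.01), and from these the depth of 23491641 to 33813074, which limits precision for genes near 1 FPKM. Near-identical copies were transcripts matching at 95% identity over 300 bases (BLAST+ 2.17.0).

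Limma 3.58.1 (R 4.3.3) was fitted to log2(FPKM + 1), with trend and robust moderation, for 11864 genes, as means of the 4 combinations of genotype label and replicate set. Fold changes on this scale understate those of low genes. P-values were adjusted by Benjamini-Hochberg over all genes, with a threshold of 0.05. Isoform shares were compared by exact permutation. Members, lists, sets and tests were chosen with earlier results of these data known. Values per library are given for genes called by label, the 6 called between sets with the largest differences, the isoform families and Aldoc. Gapdh, Pgam1, Slc16a3, Ndrg1 and the ranks of single libraries were added after their values were seen.

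Same-numbered libraries of both groups shared deviations from the group means (correlations across genes 0.41, 0.75, 0.40 and 0.52), so a fit blocked on the number is given wherever it changes a call. Within sets the correlations were 0.19 and -0.35. Alternatives were a pseudocount of 0.1, other filters, quantile normalization, median centring, limma-voom on recovered reads, other designs, the block and leaving out each library. Python 3.11.15 drew the figures.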

Additional observations from a re-analysis of the deposited data

Results flagged for a closer look

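Aldoc was at 0.553 FPKM in labelled KO replicate 2, far above the other 3 libraries of that label at 0.117 to 0.16. Eno2 was at 1.72 in labelled KO replicate 1, with the other 3 at 1.22 to 1.28. Among 66 groups of 4 libraries checked these were the 2 with a gap past Dixon's critical value, which chance passes in about 1 in 20 groups.

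In Hk2 and Kdm3a the libraries of the 2 labels did not overlap within either set but lay in opposite directions. Pfkfb4 did the same, except that wild-type and labelled KO replicate 4 were both at 2 FPKM as rounded. Of all genes, 17.7% were higher without overlap under the KO label in replicates 1 and 2, and 25.8% lower in replicates 3 and 4. The share of genes with both was not counted. Hk2 was 0.66 higher on the log2 scale under the KO label in replicates 1 and 2 and at -0.75 in replicates 3 and 4, a change of -1.40 (limma adjusted p = 0.779). Pfkfb4 was at 0.16 and -0.16, a change of -0.32 (adjusted p = 0.877). Kdm3a was at 0.21 and -0.33, a change of -0.54 (adjusted p = 0.543). None of the 3 changes passed the test.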

How the results depend on the processing

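By genotype label, 1 of the 32 genes was called, and the count was 0 without a filter, with genotype alone or with the replicate block, 3 with a filter at an FPKM of 5, 4 with limma-voom and 0 to 8 when 1 library was left out. Over all genes the count of 38 (23 higher, 15 lower) became 1 without a filter, 193 at an FPKM of 5 (57 and 136), 58 with quantile normalization, 90 with median centring, 235 with voom, 0 with genotype alone, 75 with genotype plus set (31 and 44), 0 with the replicate block and 1 to 1040 with 1 library left out. The block changed no other call among the 32 genes. Within replicates 1 and 2, voom called 1 of them, and the 6 of all genes became 0 without a filter, 15 at an FPKM of 5, 12 with quantile normalization, 39 with voom and 0 to 10 with 1 library left out. Within replicates 3 and 4, leaving out 1 library gave 0 to 5 of the 32 and 1 to 418 of all genes in place of 6 (3 higher, 3 lower), which were 29 without a filter, 4 with quantile normalization (3 and 1), 6 at an FPKM of 5 (2 and 4) and 9 with voom (3 and 6). For the change between sets the 1 gene became 2 with a pseudocount of 0.1 or voom and 1 to 58 with 1 library left out. Between the sets the 17 became 9 without a filter and 9 to 20 with 1 library left out. The 5320 of all genes became 3522 at an FPKM of 5 and 3444 to 5921 with 1 library left out. Within replicates 3 and 4, the highest counts with 1 library left out came from the fit without labelled KO replicate 3. There labelled KO replicate 4 was the only library of its label, so these highest counts are not read as results.

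The sign turned with 1 library left out for Adm in replicates 3 and 4 (-0.49 to 0.14, the last without labelled KO replicate 4). It also turned for uncalled isoform differences by label: Hk1 (-2.14 to 1.28, and 0.173 as a log2 ratio), Pfkm (-2.71 to 0.283, with 0.141 and 0.105 without wild-type replicates 1 and 2), Egln1 (-0.645 to 2.3, with -0.0948 and -0.0673 without wild-type and labelled KO replicate 4) and Pfkfb3 (-3.35 to 0.0969). The causes were not tested. With 4 against 4 libraries the exact tests cannot go below p = 0.0286.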

Other observations

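Among the other glycolytic genes, Eno3, the enolase of muscle, was at 5.41 ± 1.99 FPKM in the wild type and 9.73 ± 1.48 in the libraries labelled KO (SD, n = 4). Its log2 fold change was 0.79 ± 0.13 (95% interval 0.48 to 1.10), with a limma adjusted p of 0.0571, and the gene was chosen after its values were seen. Slc2a1, the glucose transporter of the blood-brain barrier, was at 444 ± 97 FPKM in the wild type and 344 ± 103 under the KO label (-0.40 ± 0.09, adjusted p = 0.0922). It fell by 0.62 between replicates 1 and 2 and replicates 3 and 4 (adjusted p = 0.00297), from 476 ± 68.5 to 312 ± 65.9.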
